A study of Mus musculus with 12 samples.

Results

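β4e is 1 of the splice variants of the calcium channel β4 subunit, and the comparison described here sets granule cell cultures transduced with β4e against cultures transduced with eGFP. It takes 6 of the 12 arrays of the series, 3 with β4e and 3 with eGFP, chosen by their titles and matched by the replicate number that each title gives. The β4e cultures received a lentivirus carrying β4e, and the eGFP cultures received a lentivirus carrying the fluorescent protein instead. The other 6 arrays, 3 with β4a and 3 with β4b, entered the estimate of the spread between arrays and a side comparison. All 12 cultures shared the same background: they were primary cerebellar granule cells of lethargic mice on 129/SvJ, taken at postnatal day 7, so the controls carried the Cacnb4 mutation too. Virus was present for 12 hours directly after plating, Ara-C, which blocks cell division, was added 24 hours after plating, and RNA was taken after 9 days in vitro. The labels do not say whether the replicates came from separate cultures or animals, so p-values measure only the spread between these samples, which may in part be technical.

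Voltage-gated calcium channels consist of a pore-forming α1 subunit, a cytoplasmic β subunit and extracellular α2δ subunits. The β subunit brings the pore to the membrane and shapes its gating, and β4 is the main β partner of P/Q-type channels in the cerebellum. Lethargic mice carry a mutation in Cacnb4 and show ataxia and absence seizures. Some β4 variants have also been found in the nucleus of neurons, where the protein has been tied to gene regulation. The comparison asks which transcripts differ when the β4e variant is supplied to neurons that lack normal β4.

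Each value is a log2 intensity made by the authors with GCRMA, and a difference of 1 is a factor of 2 on this scale. The values ran from 1.27 to 15.02 and the array medians from 3.84 to 3.90. A probe set was tested when it exceeded 4 in at least 3 of the 12 arrays, which left 23044 of 45101 probe sets and 10983 genes. Correlations between arrays lay between 0.934 and 0.996. Gabra6, which encodes a GABA-A receptor subunit and marks mature granule cells, had 14.02, 13.89 and 13.64 in the β4e arrays, against 13.79, 13.90 and 13.72 in the eGFP arrays. Markers of other cells were also present: Mbp of oligodendrocytes reached 14.41 with β4e and 14.41 with eGFP, and Aqp4 of astrocytes 12.83 and 12.92. The Purkinje cell marker Pcp2 and the microglial marker Aif1 had no probe set above the filter, but other markers did. Of the microglial and macrophage markers 18 of 24 were measured. Of those of Purkinje cells, interneurons and unipolar brush cells 14 of 27 were. The replicate number set most of the variation: of the sum of squares over the 6 arrays, 86.4% lay between the 3 replicate numbers and 5.26% between β4e and eGFP. Differences were therefore taken within replicate numbers, in a limma fit with the number as a block.

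No gene passed the test between β4e and eGFP. Of 23044 probe sets, 0 had an adjusted p under 0.05 in the limma fit (percent called 0), and the smallest adjusted p was 0.873. At an unadjusted p under 0.05 there were 1277 probe sets, a share of 5.54%, of which 723 were higher with β4e (3.14%) and 554 lower (2.4%). Without the block 83 probe sets were at an unadjusted p under 0.05 and 0 passed. A share of 5% is what such a test gives when nothing differs. The intervals below hold for each probe set taken alone, without adjustment for the number tested. The adjusted test can therefore miss larger differences than their width. Limd2, for example, had an interval of 0.56 to 1.20 and did not pass (limma, adjusted p = 0.873). The 95% interval reached a median of 0.30 to either side of the mean difference, and for 22075 probe sets (95.8%) the whole interval lay between -1 and 1. For 15337 probe sets (66.6%) it lay between -0.5 and 0.5.

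Few differences were large, and fewer held over the 3 replicate numbers. The mean difference exceeded 1 in size for 16 probe sets, 11 above 0 and 5 below, and 7 of the 16 had the same sign in all 3 replicate numbers. At a size over 0.5 there were 562 probe sets, 399 of them with 1 sign. A difference above 0.5 in each replicate number was found for 14 probe sets, a difference below -0.5 in each for 18, and a difference over 1 in each for 0. Within replicate 1, 202 probe sets differed by more than 1 between the β4e and the eGFP array, within replicate 2, 434, and within replicate 3, 64. Of those, 616 did so in 1 replicate number, 42 in 2 and 0 in all 3. Probe sets higher with β4e in all 3 numbers made up 15.3% of those tested and probe sets lower in all 3 made up 12.4%. The arrays of the groups did not overlap for 323 probe sets that were higher (1.4%) and 175 that were lower (0.759%).

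**Figure D1:**
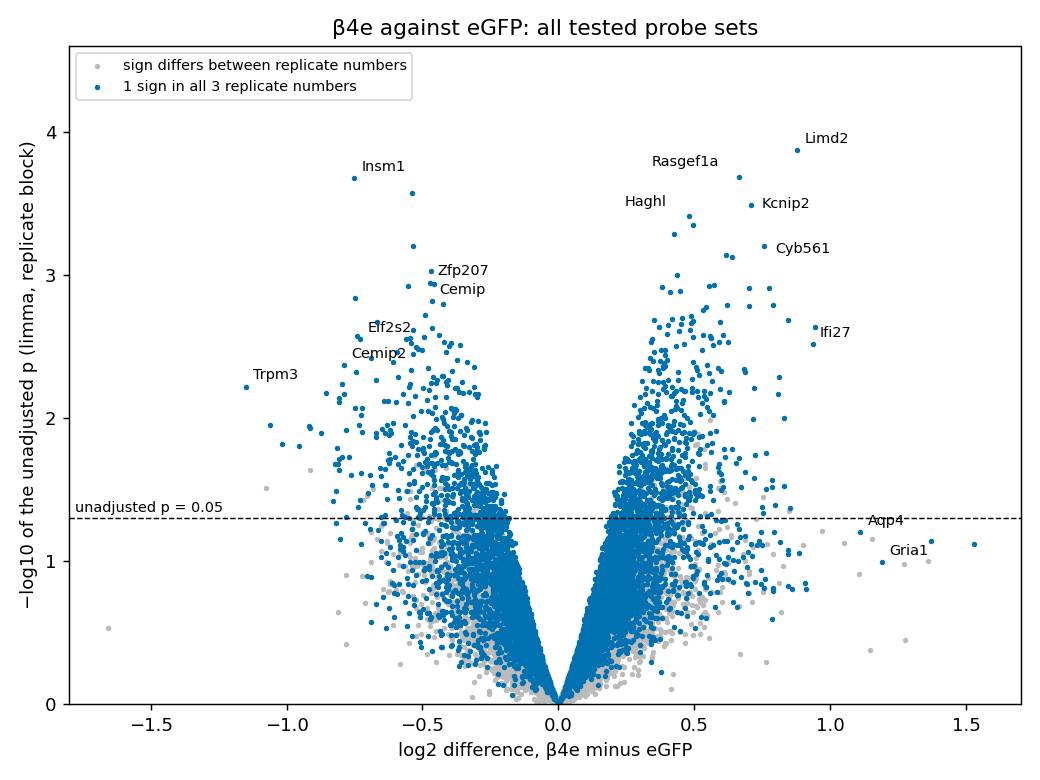
Log2 difference, β4e minus eGFP (horizontal), against the −log10 of the unadjusted p of the limma fit (vertical) for the 23044 tested probe sets. Blue points have 1 sign in all 3 replicate numbers, grey points do not, and the dashed line marks an unadjusted p of 0.05. Limd2 and Insm1 lead their directions. The largest differences with 1 sign in all 3 numbers and a group mean above 6, such as Gria1, Aqp4 and Trpm3, have larger p-values.

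The 15 genes with the smallest p among those higher with β4e averaged between 0.38 and 0.88 above eGFP. Limd2, which encodes a LIM domain protein, had the smallest p of them all. It stood at 7.55, 8.01 and 6.09 in β4e replicates 1 to 3, against 6.80, 7.16 and 5.06 in eGFP replicates 1 to 3. The β4e array was the higher one in each replicate number, but the groups overlapped because replicate 3 was low in both. The mean difference was 0.88 ± 0.14 (SE; limma, adjusted p = 0.873), and a second, dim probe set of the gene gave 0.14. Rasgef1a, which activates Ras-family GTPases, had 5.71, 7.45 and 5.92 with β4e, against 5.02, 6.78 and 5.28 with eGFP. Its 3 differences were nearly equal, between 0.63 and 0.69, and a second, brighter probe set averaged 0.69. Haghl, a paralogue of the glyoxalase Hagh, stood at 7.995, 7.86 and 8.01 in β4e cultures, against 7.62, 7.27 and 7.53 in eGFP cultures. Here the groups did not overlap, and of 3 further probe sets 1 gave 0.49, 1 gave 0.43 and 1 gave 0.02. Cyb561, a cytochrome that carries electrons across the membrane of secretory vesicles, was at 5.25, 5.96 and 5.06 with β4e, against 4.53, 5.01 and 4.46 with eGFP, again with no overlap. Xaf1, a pro-apoptotic gene induced by interferon, was at 6.04, 5.43 and 5.38 with β4e, against 5.23, 4.77 and 5.00 with eGFP, and was the only other gene of the 15 whose groups did not overlap.

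The remaining genes in this direction had varied roles. Acsl6, the acyl-CoA synthetase that activates docosahexaenoic acid in brain, averaged 0.49 ± 0.09 above eGFP (SE). Ppa2, the mitochondrial pyrophosphatase, averaged 0.38, and Pcbd2, which recycles the pterin cofactor and also binds HNF1, 0.70. Egln1, the prolyl hydroxylase that marks HIF for degradation, averaged 0.55 on a dim probe set and 0.07 on its brightest one. Pmaip1, the BH3-only protein Noxa, averaged 0.64 from values of 5.37, 3.65 and 4.04 with β4e, against 4.93, 3.19 and 3.03 with eGFP, all near the filter in replicates 2 and 3. Ube2ql1, a ubiquitin-conjugating enzyme, averaged 0.57 with differences of 0.57, 0.56 and 0.58. Btbd9, Smim8 and A830010M20Rik completed the 15, at 0.42, 0.44 and 0.78. For the same 15 genes the mean difference lay between 0.28 and 1.23 for β4a minus eGFP and between 0.24 and 1.42 for β4b minus eGFP, which use the same eGFP arrays. Limd2 passed for β4b minus eGFP at 1.42 (limma, adjusted p = 0.0295). Rasgef1a passed for β4a minus eGFP at 1.02 (limma, adjusted p = 0.0488). The direct differences of β4e to these, -0.54 and -0.36, did not pass (limma, adjusted p = 0.663 and 0.759).

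The 15 genes with the smallest p among those lower with β4e averaged between -0.34 and -0.79. Insm1, a zinc finger repressor expressed in neuronal progenitors, led them. It stood at 10.45, 6.62 and 8.25 in the β4e arrays, against 10.85, 7.56 and 9.17 in the eGFP arrays. The β4e array was lower in each replicate number while the level itself differed by several log2 units between numbers. The mean difference was -0.75 ± 0.13 (SE; limma, adjusted p = 0.873), and a second, dim probe set gave -0.19 with mixed signs. Cemip, which takes part in the breakdown of hyaluronan, had 11.30, 10.08 and 10.54 with β4e, against 11.73, 10.70 and 10.89 with eGFP, a mean difference of -0.47. Zfyve28, a negative regulator of EGF receptor signalling, had 10.36, 10.29 and 10.08 with β4e, against 10.68, 10.66 and 10.41 with eGFP. Its groups did not overlap, and its 3 differences lay between -0.36 and -0.32. Sema4c, a transmembrane semaphorin, averaged -0.59, and Prkcb, the β isoform of protein kinase C, averaged -0.69 on 1 probe set and -0.63 on a brighter one. For the 15 lower genes the mean difference lay between -1.48 and 0.01 for β4a minus eGFP. For β4b minus eGFP it lay between -1.31 and -0.02, with the same eGFP arrays.

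Most of the other genes in this direction rested on a probe set dimmer than another of the same gene. Of the 15 higher genes, 7 had another tested probe set and 3 were named from a probe set dimmer than another of the same gene. Of the 15 lower genes, 12 had another and 11 were named from a dimmer one. The brightest other probe set lay within 0.15 of no difference for 4 of 7 higher genes and 8 of 12 lower genes. Eif2s2, the β subunit of translation initiation factor eIF2, shows this. Its named probe set differed by -0.81, -1.04 and -0.35 in replicates 1 to 3, a mean difference of -0.73, while its 5 other probe sets ranged from -0.12 to 0.11. Atp2a2, the SERCA pump of the endoplasmic reticulum, averaged -0.42 on a probe set at 5.44 and -0.04 on its brightest one at 13.15. Camk2d, Hadhb, Ddhd2, Zfp207, Tpp2 and Cdv3 averaged between -0.61 and -0.37 on the named probe set, and between -0.12 and -0.01 on the brightest other. B3galnt2 and Cemip2 kept part of the difference, at -0.28 and -0.23 on the brightest other probe set against -0.49 and -0.79 on the named one.

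The same contrast between directions was present over all probe sets at an unadjusted p under 0.05. Of the 723 higher ones, 441 (61.0%) were the brightest probe set of their gene and 33 (4.56%) carried no gene symbol. Of the 554 lower ones, 125 (22.6%) were the brightest of their gene and 226 (40.8%) carried no symbol. Over all tested probe sets the shares were 47.7% and 13.2%. Counted over genes with 1 probe set each, 441 of 10983 were at an unadjusted p under 0.05 and higher with β4e (4.02%) and 125 were lower (1.14%). Higher in all 3 replicate numbers were 2025 genes (18.4%) and lower in all 3 were 965 (8.79%). The mean difference was above 0 for 60.6% of genes and below 0 for 39.4%, with a median of 0.03. As a sign of RNA length, the 3′ probe set of the Actb control exceeded its 5′ probe set by 1.09, 1.02 and 0.96 in the β4e arrays, against 0.96, 0.86 and 0.96 in the eGFP arrays. The same difference for Gapdh was 0.40, 0.05 and 0.00 with β4e, against 0.39, 0.12 and 0.03 with eGFP. Their part in the contrast between directions was not tested.

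**Figure D2:**
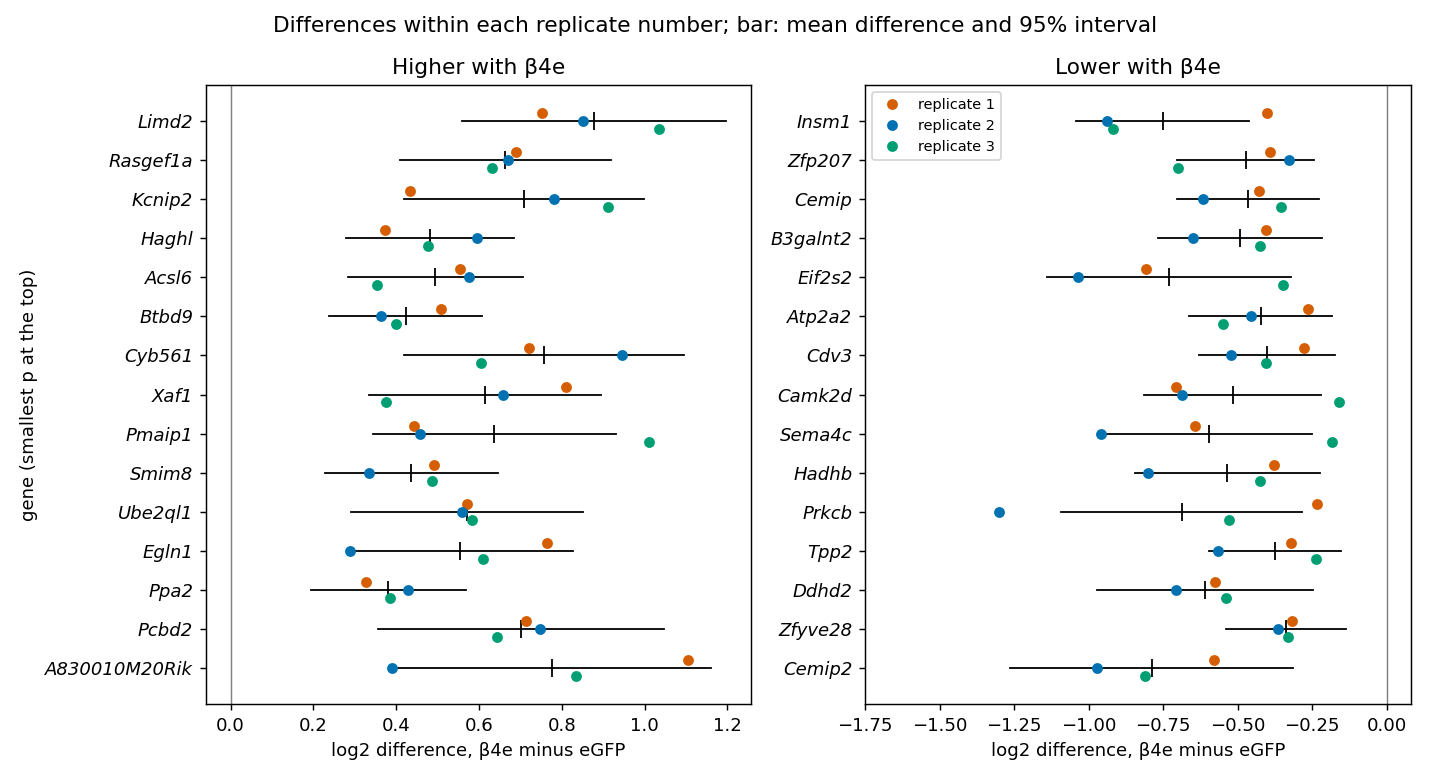
Log2 difference, β4e minus eGFP (horizontal), for the 15 genes per direction with the smallest p (vertical, smallest at the top). Coloured points are the differences within replicate numbers 1, 2 and 3, the tick is the mean difference and the bar its 95% interval from limma. All 3 points of each gene lie on 1 side of 0, since the genes were chosen for a small p, and Rasgef1a, Ube2ql1 and Zfyve28 have the tightest points.

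Among genes with 1 sign in all 3 numbers and a group mean above 6, 8 per direction were named for the largest mean difference. Gria1, an AMPA receptor subunit that Bergmann glia carry as well as neurons, stood at 5.68, 6.46 and 6.20 in β4e cultures, against 5.34, 4.36 and 5.07 in eGFP cultures. The groups did not overlap, yet the 3 differences ran from 0.34 in replicate 1 to 2.10 in replicate 2. The mean was 1.19 ± 0.66 (SE; limma, adjusted p = 0.895). Aqp4, the water channel of astrocyte endfeet, had 10.53, 9.96 and 10.76 on 1 probe set with β4e, against 10.33, 8.15 and 9.44 with eGFP, and its brighter probe set averaged 0.50 with mixed signs. Mlc1, a membrane protein of the same endfeet, Id4, an inhibitor of bHLH factors, S1pr3, a sphingosine phosphate receptor, and Sdc4, a cell-surface proteoglycan, averaged 0.86, 0.89, 0.91 and 0.85, and a brighter probe set of Id4 averaged 0.46. Ifi27, an interferon-induced gene, averaged 0.94 ± 0.24 with differences of 0.76, 1.12 and 0.93. Of the 8 genes named for a large positive difference, 6 had their largest difference in replicate 2.

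In the other direction the channel gene Trpm3 was the lowest, at 5.76, 5.60 and 7.41 with β4e, against 6.66, 7.38 and 8.19 with eGFP. Its mean difference was -1.15 ± 0.33 (SE; limma, adjusted p = 0.873), and the groups overlapped. The 2 brighter probe sets of Trpm3 averaged -0.27 and -0.41. Tenm2, a teneurin of synaptic adhesion, averaged -0.95. Bcl2l11, the BH3-only protein Bim, averaged -0.83, and its differences were -0.49, -1.77 and -0.23. Grm5, a group I metabotropic glutamate receptor, averaged -0.82 with differences of -0.00, -1.94 and -0.51. Msi2, an RNA-binding protein of progenitors, Clock, the circadian activator, Ptpre, a tyrosine phosphatase, and Adamts18, a secreted protease, lay between -0.82 and -0.77. Most of these genes had a brighter probe set with a smaller difference, at -0.72 for Tenm2, -0.68 for Grm5, -0.62 for Ptpre, -0.24 for Clock, -0.00 for Msi2 and 0.12 for Adamts18, the last higher with β4e in all 3 numbers. Of these 8 genes, 7 had their largest difference in replicate 2, and for 0 of the 8 were the groups apart.

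The calcium channel genes themselves showed no difference that passed the test. Cacnb4 was detected strongly in both groups on 3 probe sets. The brightest had 11.91, 11.87 and 12.15 with β4e, against 12.03, 12.01 and 12.24 with eGFP, a mean difference of -0.11 ± 0.08 (SE; limma, adjusted p = 0.911). The other 2 averaged -0.16 and 0.14, with mixed signs. Where these probe sets lie relative to the viral construct and to the mutation is not given in the sources used here, so they check neither the transgene nor the genotype. Of 22 channel genes listed, 14 were measured, with a median difference of -0.09, against 0.03 over all genes. At an unadjusted p under 0.05 there were 0 higher and 1 lower, against 4.02% and 1.14% of all genes. Of the 14, 2 (14.3%) were higher in all 3 numbers and 4 (28.6%) lower, against 18.4% and 8.79% of all genes.

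Among the pore subunits, Cacna1a of P/Q-type channels had 11.07, 11.26 and 11.37 with β4e, against 11.25, 11.29 and 11.41 with eGFP, a difference of -0.08 ± 0.13 (SE). Cacna1b of N-type and Cacna1e of R-type channels averaged -0.09 and -0.14. The L-type genes Cacna1c and Cacna1d averaged -0.19 and -0.47, both from differences of mixed sign, and T-type Cacna1g averaged -0.03. A dimmer probe set of Cacna1c averaged 0.16. Of the α2δ subunits, Cacna2d1 and Cacna2d3 averaged 0.03 and -0.14. Cacna2d2, the gene mutated in ducky mice, was the one at an unadjusted p under 0.05, at -0.44 ± 0.19 (SE; limma, adjusted p = 0.892), but replicate 1 went the other way. Among the γ subunits and AMPA receptor regulatory proteins, Cacng2, the gene mutated in stargazer mice, averaged 0.04, Cacng4 0.45, Cacng7 0.17 and Cacng5, which is carried by Bergmann glia, 0.64. Of the other β subunit genes, Cacnb1 and Cacnb2 had no probe set above the filter, and no probe set was annotated to Cacnb3 alone.

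Among proteins and genes reported to work with β4 in the nucleus, no gene passed the test. All 7 measured genes of 13 listed averaged above 0, against 60.6% of all genes, and their median was 0.09. Nfatc1, a calcineurin-dependent transcription factor, had 4.39, 4.36 and 4.52 with β4e, against 3.97, 4.15 and 4.10 with eGFP. The groups did not overlap, but the levels were close to the filter (difference 0.35 ± 0.09, SE; limma, adjusted p = 0.873). Gem, a small GTPase that binds β subunits, averaged 1.05 with differences of -0.44, 2.35 and 1.24. It had 3.16, 7.17 and 3.77 with β4e, against 3.60, 4.82 and 2.53 with eGFP. Both arrays of replicates 1 and 3 thus lay under the filter of 4. It averaged 2.20 for β4a minus eGFP and 1.57 for β4b minus eGFP. Hp1bp3 and Cbx5, which bind heterochromatin, Thra, the thyroid hormone receptor, and Ppp2r5d, a PP2A subunit, lay between 0.01 and 0.09.

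The 32 measured potassium channel genes had a median of 0.02, against 0.03 over all genes. Dpp10, an auxiliary subunit of Kv4 channels, stood at 4.98, 5.09 and 4.69 in β4e cultures, against 3.43, 4.25 and 4.25 in eGFP cultures, with no overlap and close to the filter. Kcnip2 and Kcnip4, calcium-binding subunits of the same channels, averaged 0.71 ± 0.13 and 0.71 ± 0.36 (SE), and the pore gene Kcnd2 averaged -0.02. Kcnip2 had 6.51, 9.06 and 7.53 with β4e, against 6.07, 8.28 and 6.62 with eGFP, the β4e array being higher in each number. The shaker-type channel Kcna2 averaged -0.28. Of the 32 genes 3 were at an unadjusted p under 0.05 and higher, and 1 was lower, against 4.02% and 1.14% of all genes.

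Synaptic genes spread in both directions. Vamp1, a vesicle SNARE, had 5.72, 7.19 and 6.15 with β4e, against 4.90, 6.55 and 5.51 with eGFP, a difference of 0.70 ± 0.16 (SE; limma, adjusted p = 0.873). Other presynaptic genes lay lower, among them Syp, the vesicle protein synaptophysin, at -0.29, and Pclo, an active zone scaffold, at -0.22. Of 33 presynaptic genes, 13 averaged above 0, and the median was -0.03. Of the postsynaptic scaffolds, Shank3 averaged 0.56 and Dlg4 0.31, while Dlg2 averaged -0.48. Among AMPA and NMDA receptor genes, Grin3a averaged 0.42 beside Gria1, and Gria2 and Grin2b averaged -0.11 and -0.48. Of 8 measured kainate and metabotropic receptor genes 3 averaged above 0, with a median of -0.07. Guidance genes went both ways as well, with the Slit receptor Robo1 at 0.40, its paralogue Robo2 at -0.74 and the repellent Sema3a at -0.50.

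Granule cell identity genes were level between the groups in their median, though not in the counts of lower genes. The 30 measured genes had a median of 0.00, and 16 were above 0. Neurod1, the bHLH factor of granule neurons, averaged 0.01, and Zic1 averaged -0.06. Tubb3, a neuronal tubulin, averaged 0.49. At an unadjusted p under 0.05, 1 gene was higher and 3 were lower, against 4.02% and 1.14% of all genes. The lower ones were Fat2, a granule cell cadherin, at -0.39, Zic2 at -0.30 and Reln, the secreted guidance protein reelin, at -0.24. Of these 30 genes, 3 were higher in all 3 numbers and 6 lower, against 18.4% and 8.79% of all genes.

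Activity-regulated genes, which neurons induce when calcium enters through synaptic and voltage-gated channels, did not shift together with β4e. The median of 25 immediate early genes was -0.06, and their 3 medians within replicate numbers were -0.11, 0.20 and -0.02. Of the 25, 11 averaged above 0, 4 (16.0%) were higher in all 3 numbers and 0 were at an unadjusted p under 0.05. The single genes differed widely within a number and cancelled over numbers. Fos, the AP-1 component, had 8.52, 13.62 and 11.31 with β4e, against 8.62, 12.97 and 12.09 with eGFP. Npas4, a factor induced by calcium influx, had 3.20, 11.90 and 6.52 with β4e, against 3.02, 10.43 and 9.11 with eGFP. Egr3, a zinc finger factor, had 4.69, 11.26 and 10.79 with β4e, against 9.43, 11.85 and 10.42 with eGFP. Replicate 1 was low for Fos and Npas4 in both groups, and these 3 genes were picked out after their values were seen. The median for the immediate early genes was 0.49 without the β4e array of replicate 1 and -0.35 without the eGFP array of replicate 1. The 26 later effectors and feedback regulators had a median of -0.01, with Rgs4, a brake on G protein signalling, at 0.56 and Penk, the enkephalin precursor, at -0.49.

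The β4a and β4b cultures were set beside them in the same fit. The median of the 25 immediate early genes was 1.43 for β4a minus eGFP and 0.75 for β4b minus eGFP, and all 3 comparisons share the eGFP arrays. In replicate 3 the mean level of the list was lower in these groups, at 7.14 for β4a and 7.06 for β4b, against 7.26 for eGFP. None of the 25 genes passed in either comparison (limma, smallest adjusted p = 0.176 for β4a and 0.167 for β4b). Set directly against the other variants, β4e was lower for 25 of 25 genes against β4a, with a median of -1.37, and for 24 of 25 against β4b, with a median of -0.60. Over all genes 48.5% were lower against β4a and 53.7% against β4b. The difference lay in 2 of the 3 replicate numbers: against β4a the median was -2.98 in replicate 1, -0.87 in replicate 2 and 0.01 in replicate 3. Against β4b it was -1.71, -0.26 and -0.00. At an unadjusted p under 0.05 there were 8 of the 25 against β4a and 0 against β4b, where 6.33% and 7.11% of all probe sets were, and 0 passed adjustment in either.

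**Figure D3:**
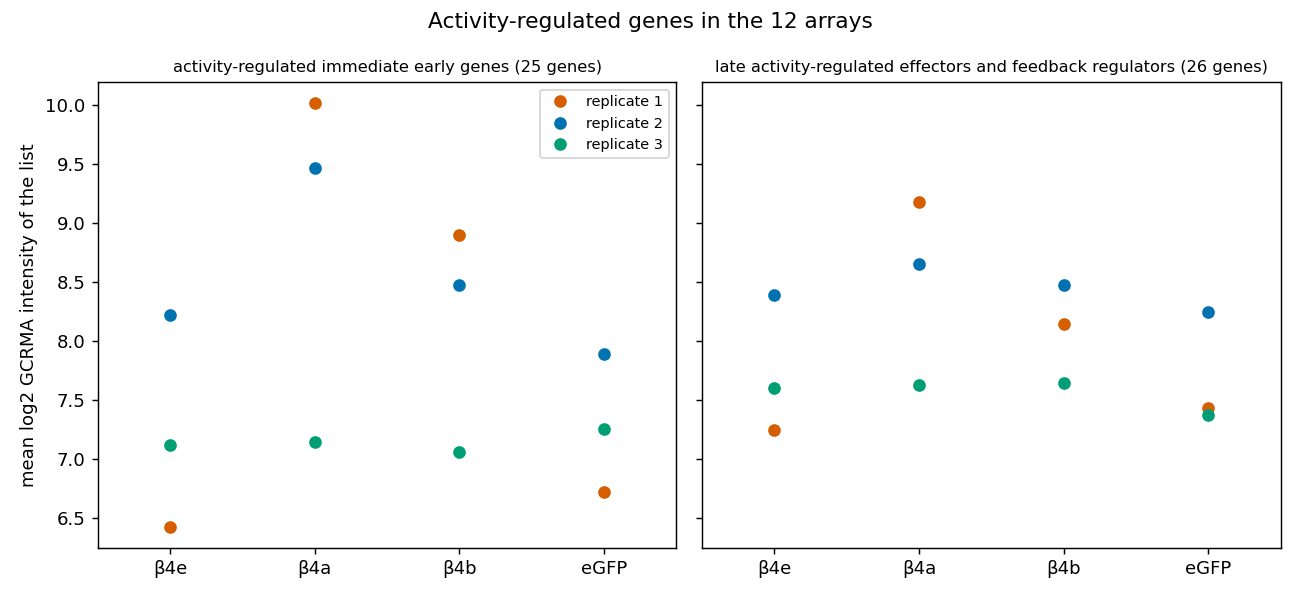
Mean log2 GCRMA intensity (vertical) of 25 immediate early genes, left, and of 26 later effectors, right, in each of the 12 arrays, by group (horizontal) and replicate number (colour). The β4e and eGFP arrays lie close within each replicate number, at 6.43 and 6.72, 8.22 and 7.89, and 7.12 and 7.26 for the immediate early genes, while β4a reaches 10.01 in replicate 1 and all 4 groups lie between 7.06 and 7.26 in replicate 3.

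Markers of astrocytes and Bergmann glia averaged higher with β4e, through replicates 2 and 3. Of 28 measured genes, 27 averaged above 0, against 60.6% of all genes, and the median was 0.39. The medians within replicate numbers were -0.06, 0.83 and 0.35, so 9 of the 28 (32.1%) were higher in all 3 numbers, against 18.4% of all genes. At an unadjusted p under 0.05 there were 0, against 4.02% of all genes that were higher. The mean level of the list was 9.62, 9.27 and 9.11 in the β4e arrays, against 9.63, 8.43 and 8.71 in the eGFP arrays. The eGFP array of replicate 2 was the lowest of the 12. Slc1a3, the glial glutamate transporter GLAST, picked out after its values were seen, had 9.72, 10.36 and 10.06 with β4e, against 10.05, 7.79 and 8.84 with eGFP. Id3, an inhibitor of bHLH factors, and Aldh1l1, a folate enzyme that marks astrocytes, both averaged 0.79. The list median was 0.17 without replicate 2, 0.16 without the eGFP array of replicate 3 and 0.77 without the eGFP array of replicate 1. The list median was also above 0 in the other variants over the same eGFP arrays, with medians of 0.38 for β4a minus eGFP and 0.54 for β4b minus eGFP. Set directly against them, β4e averaged lower for 22 of 28 genes against β4a, with a median of -0.07. Against β4b it averaged lower for 28 of 28, with a median of -0.23. In either comparison 0 were at an unadjusted p under 0.05. The lower averages came from replicate 3. In replicates 1 to 3 the medians were 0.23, 0.29 and -0.69 against β4a. Against β4b they were 0.22, 0.06 and -0.93. In such RNA from mixed cultures, fewer cells of a type and less RNA per cell cannot be told apart.

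Other non-neuronal lists were less even. Of 25 fibroblast, meningeal and vascular genes, 19 averaged above 0, with medians of -0.02, 0.32 and 0.04 within replicate numbers 1 to 3. Microglial genes had a median of -0.32 in replicate 1, 0.54 in replicate 2 and 0.11 in replicate 3. Their mean level was 6.77, 7.05 and 7.23 in the β4e arrays, against 7.16, 6.56 and 7.11 in the eGFP arrays. Of 19 oligodendrocyte genes 13 averaged above 0, and the median was 0.06. Markers of Purkinje cells, interneurons and unipolar brush cells had a median of -0.02. Ttr, the transthyretin made by choroid plexus, was also picked out after its values were seen. Its brightest probe set had 11.79, 10.27 and 14.25 with β4e, against 14.14, 4.00 and 14.35 with eGFP. On it β4e was lower by over 2 units in replicate 1 and higher by over 6 in replicate 2. The other tested probe sets of Ttr gave -2.38, -2.76 and -3.54 in replicate 1. In replicate 2 they gave 4.83, 6.30 and 2.89. The part of these cells in the other differences was not tested.

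**Figure D4:**
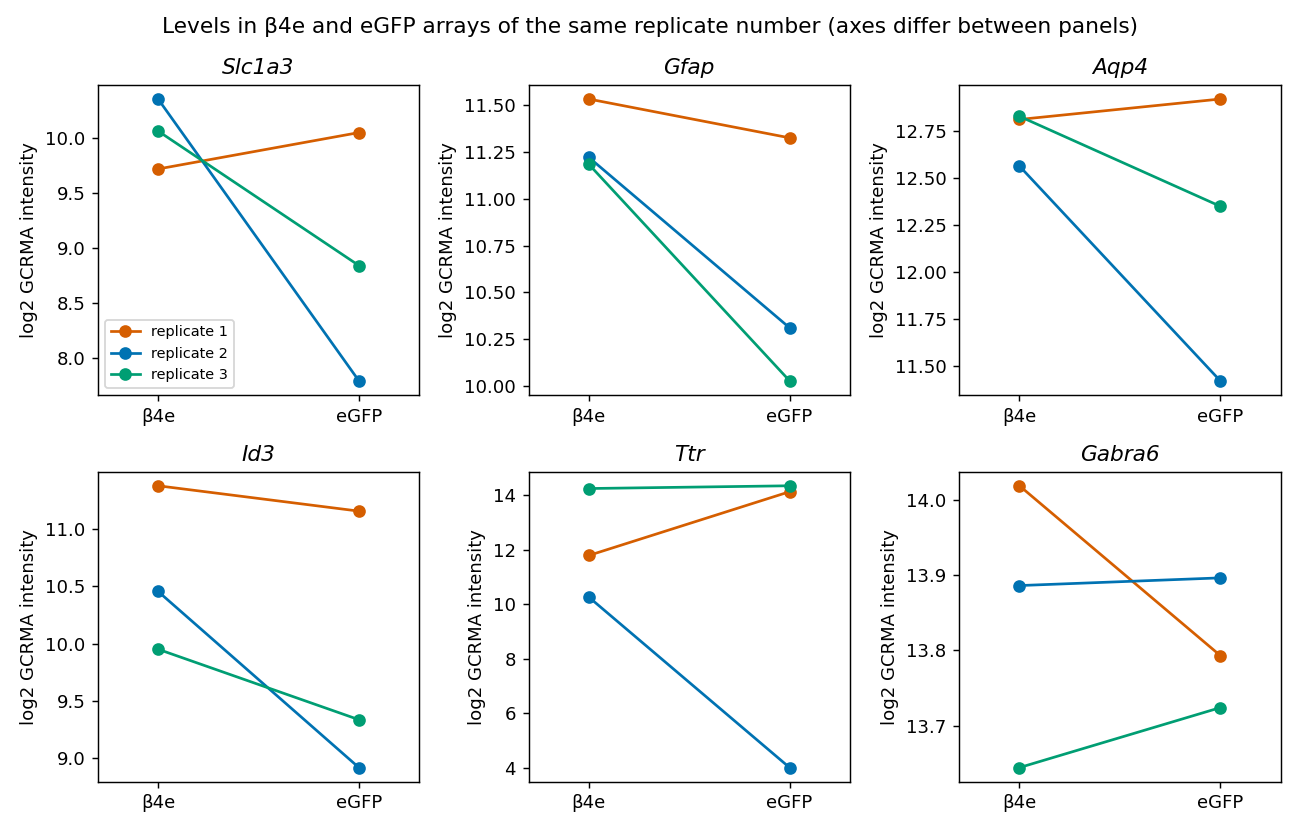
Log2 GCRMA intensity (vertical) of 4 astrocyte genes (Slc1a3, Gfap, Aqp4 and Id3), of Ttr and of the granule cell gene Gabra6, in the β4e array (left) and the eGFP array (right) of each replicate number, joined by lines. The eGFP arrays of replicates 2 and 3 lie low for the glial genes, Ttr crosses between numbers, and Gabra6 stays between 13.64 and 14.02.

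Interferon-response and MHC class I genes formed the list with the largest share of genes higher in all 3 numbers. Of 21 measured genes of 36 listed, 20 averaged above 0, 10 (47.6%) were higher in all 3 numbers against 18.4% of all genes, and 4 were at an unadjusted p under 0.05 and higher, against 4.02% of all genes. The list median was 0.20, with 0.14, 0.38 and 0.08 in replicates 1 to 3. Ifi27 had 7.61, 7.10 and 6.45 with β4e, against 6.85, 5.99 and 5.52 with eGFP. Ifi35 had 6.97, 6.73 and 5.01 with β4e, against 6.84, 4.86 and 4.63 with eGFP, most of it in replicate 2. The MHC genes H2-D1 and H2-K1 averaged 0.31 and 0.23, whereas Cxcl10, an interferon-induced chemokine, averaged -0.07. The mean level of the astrocyte list, given above, was lower in the same eGFP arrays of replicates 2 and 3, and its part in this list was not tested. In replicate 1 the astrocyte median was -0.06, the interferon median 0.14 and the median over all genes 0.04. The list median was 0.15 for β4a minus eGFP and 0.12 for β4b minus eGFP, with the same eGFP arrays.

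Housekeeping and stress lists moved by little. Of 30 cytosolic ribosomal genes, 25 averaged above 0 and 12 (40.0%) were higher in all 3 numbers, against 60.6% and 18.4% of all genes, with a median of only 0.04. Of 35 splicing and RNA-binding genes, 27 averaged below 0 and 11 (31.4%) were lower in all 3, against 39.4% and 8.79% of all genes, with a median of -0.04. Mbnl2, a regulator of alternative splicing, averaged -0.26, and Nova1, a neuronal one, 0.18. The 42 oxidative phosphorylation genes lay between -0.07 and 0.12. Of 27 hypoxia and glycolysis genes 24 averaged above 0, led by Pfkfb3, which makes the activator of phosphofructokinase, at 0.47 and by Hk2, a hexokinase, at 0.35. Of 27 sterol and fatty acid genes 22 averaged above 0, with a median of 0.10. Scd1, the stearoyl-CoA desaturase, had 11.55, 10.79 and 10.72 with β4e, against 10.997, 10.27 and 10.43 with eGFP. Srebf2, the master factor of sterol synthesis, averaged 0.28. In the unfolded protein response Sdf2l1, a chaperone cofactor, averaged 0.50 and Atf4 averaged -0.21. Among p53 targets and death genes, Pmaip1 and Bcl2l11 lay on opposite sides, and the list median was 0.03, as over all genes.

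Clock genes lay on both sides of 0. Clock, Arntl, which encodes its partner BMAL1, and the repressor Cry1 averaged -0.24, -0.43 and -0.22 on their brightest probe sets, each lower in all 3 numbers. Hlf, an output factor, averaged 0.59. Per1, also a repressor, averaged 0.38, and its difference was -0.36 without the eGFP array of replicate 1. The list median was 0.38 in replicate 1, 0.01 in replicate 2 and -0.19 in replicate 3.

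**Figure D5:**
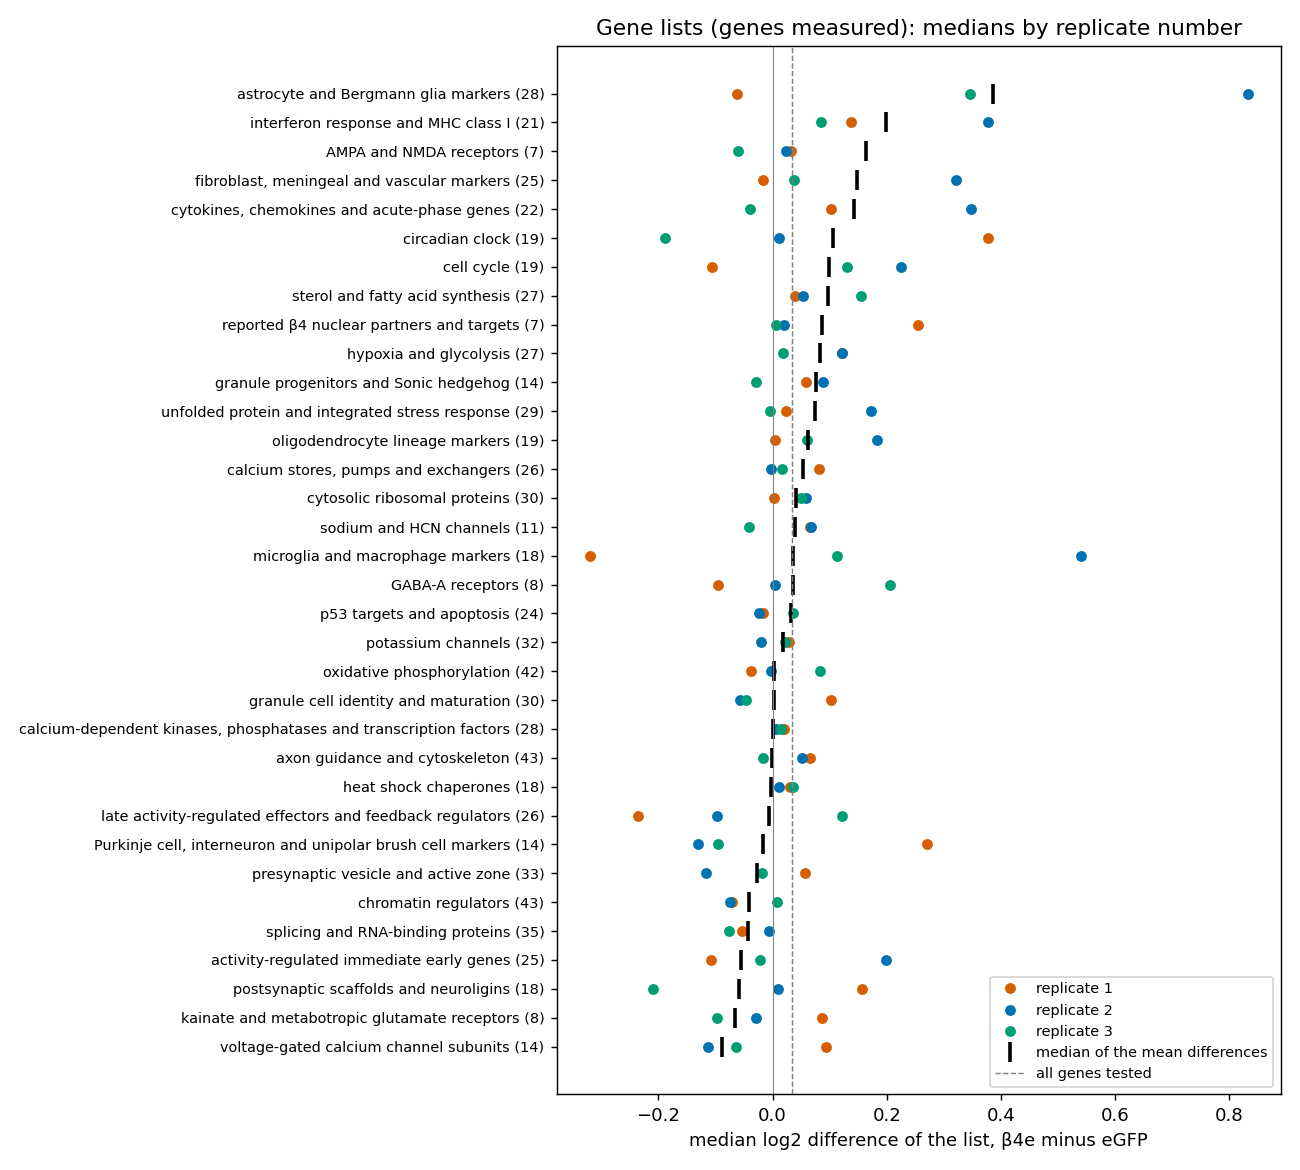
Median log2 difference, β4e minus eGFP (horizontal), of 34 gene lists (vertical, number of measured genes in brackets), in replicate numbers 1, 2 and 3 (coloured points) and over the mean differences of the genes (black tick). The dashed line is the median of all genes, 0.03. The astrocyte list lies highest at 0.39 with points from -0.06 to 0.83, and most ticks lie between -0.10 and 0.20.

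Against the other variants no gene passed either. For β4e minus β4a, 0 of 23044 probe sets had an adjusted p under 0.05 (percent called 0) in limma, with a smallest adjusted p of 0.759, and 1458 (6.33%) had an unadjusted p under 0.05. For β4e minus β4b the counts were 0 (percent called 0) and 1638 (7.11%), with a smallest adjusted p of 0.237. Insm1 was among the 5 higher genes with the smallest p in both. It averaged -0.75 for β4e minus eGFP, -1.48 for β4a minus eGFP and -1.31 for β4b minus eGFP, and the β4a and β4b differences passed in the limma fit (adjusted p = 0.0175 and 0.0295). The direct differences of 0.73 to β4a and 0.56 to β4b did not pass (limma, adjusted p = 0.759 and 0.663), so β4e was not shown to differ from them. Against β4a, the other higher genes were Cmtr1, an mRNA cap methyltransferase, at 0.47, Nlgn3, a neuroligin, at 0.45, Tmem161a at 0.44 and Fndc10 at 0.52. The lower ones included Mcl1, an anti-apoptotic BCL2 relative, at -0.77, Mmgt1 at -0.69 and Hook3, a dynein adaptor, at -0.61. Alcam, an adhesion molecule, at -0.56 and Cdc73, a subunit of the PAF1 complex, at -0.45 completed them. Hook3 passed for β4a minus eGFP at 1.06 (limma, adjusted p = 0.0350) and averaged 0.45 for β4e minus eGFP. Its direct difference did not pass (limma, adjusted p = 0.759). Against β4b, Grin2c, the NMDA receptor subunit of mature granule cells, averaged 0.58, Tsks 0.55, Mtrex, an RNA helicase, 0.52 and Coro7 0.42. Rrm2b, a ribonucleotide reductase subunit induced by p53, averaged -1.13. Its β4e arrays stood at 3.86, 3.74 and 3.61, all under the filter of 4. It averaged -0.19 for β4e minus eGFP and 0.94 for β4b minus eGFP. Dynlt3, a dynein light chain, averaged -0.94, Zeb2, a zinc finger repressor, -0.92, Lztfl1 -0.76 and 2610507B11Rik -0.69. Zeb2 passed for β4b minus eGFP at 1.38 (limma, adjusted p = 0.0304) and averaged 0.46 for β4e minus eGFP, and the direct difference did not pass (limma, adjusted p = 0.404).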

How the data were processed

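The authors deposited log2 intensities made with GCRMA, per the submitters' processing notes; its version is not given in the sources used here. Per the labels' protocols, 500 ng of RNA per sample was labelled by 3′ in vitro transcription and hybridised to 1 array. Values were used as deposited. Of 45101 probe sets, 64 AFFX controls and those not above 4 in 3 arrays were left out. Before the filter and without the controls, 34945 had 1 gene symbol, 932 several and 9160 none. Of the 23044 tested, 19477 had 1 symbol and 3033 none. Only those with 1 symbol were named. The 12 arrays were fitted with limma 3.58.1 in R 4.3.3 (4 groups, replicate number as block, 6 residual degrees of freedom), checked on simulated data, with two-sided p-values adjusted by Benjamini-Hochberg over 23044 probe sets and a threshold of 0.05. The pairing follows the replicate numbers in the titles. All 18 same-number pairs correlated in their deviations from group means (r 0.699 to 0.884), other pairs at most 0.146. Deviations from a mean of 3 arrays sum to 0, which in part sets the low r of the other pairs in advance. A list takes the brightest probe set of each gene. Genes were named by rule: 15 per direction by p, 8 by size with 1 sign in all numbers and a group mean above 6, Cacnb4 and the calcium channel list, up to 3 per list and direction by size with 1 sign, and 5 per direction against β4a and β4b; further list members given as examples were chosen after their values were seen. Members and lists were chosen with earlier results of these data known.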

Additional observations from a re-analysis of the deposited data

How the results depend on the processing

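The count at an adjusted p under 0.05 was 0 for β4e against eGFP, β4a and β4b under all alternatives run, with a smallest adjusted p of 0.135 for β4e minus eGFP, without the eGFP array of replicate 1. The count of 1277 at an unadjusted p under 0.05 was 83 with no replicate block, 2181 with no filter on 45037 probe sets and 732 of 13926 with a filter above 6. It ran from 567 (without replicate 2) to 1793 (without replicate 1) as arrays or numbers were left out, and was 842 without the β4e array of replicate 2. Only the β4e and eGFP arrays gave 1610, centring 1278, quantile normalization 1286, and trend with robust estimation 1200. The replicate block changed no call after adjustment.

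Of 169 named probe sets, 159 kept 1 sign in all settings and 0 passed in any. The others were near 0 or rested on 1 array. A probe set with 1 sign in all 3 numbers cannot change sign when a whole number is left out. Most named probe sets were chosen for this or had it, so the count of 159 in part reflects the choice. Centring turned Mef2a to -0.0053. As arrays were left out, the difference ran over -0.024 to 0.047 for Mef2a (-0.016 in a further setting), -0.015 to 0.20 for Trim28, -0.0021 to 0.16 for Ehmt2, -0.36 to 0.80 for Per1, -0.013 to 0.18 for Grm4 and -0.044 to 0.43 for Xbp1. It ran over -0.48 to 0.20 for Dusp5 (0.033 in a further setting), -0.37 to 0.031 for Atf4, -0.083 to 0.012 for Lss (0.010 in a further setting) and -0.072 to 0.0060 for Cox5b. Of 578 list medians under alternatives, 41 moved by more than the SD of the 3 medians within replicate numbers. Dim probe sets near 4 limit what can be read from genes such as Nfatc1 and Pmaip1, and 3 arrays per group limit the precision. The cause of these shifts was not tested.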
